A study of Rattus norvegicus with 24 samples.

Results

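The genes described here are 10 genes of the antioxidant response and of its main transcriptional pathway, the NRF2 pathway: Nfe2l2, Keap1, Nqo1, Gclc, Gclm, Sod1, Sod2, Cat, Gpx1 and Prdx6. They were chosen by name for their known roles, at a time when earlier results of these data were known. The rule that picks them uses no measured value. Of these 10 genes, 9 had a row among the 10851 genes of the deposited table, and Prdx6 was not analysed here for lack of one. The measured genes carry the Ensembl identifiers ENSRNOG00000001548 (Nfe2l2), ENSRNOG00000020878 (Keap1), ENSRNOG00000012772 (Nqo1), ENSRNOG00000006302 (Gclc), ENSRNOG00000013409 (Gclm), ENSRNOG00000002115 (Sod1), ENSRNOG00000019048 (Sod2), ENSRNOG00000008364 (Cat) and ENSRNOG00000048812 (Gpx1).

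RNA-seq was performed on the medial gastrocnemius, a calf muscle, of 24 male Wistar rats in 4 groups of 6. Control rats received saline and either stayed sedentary (Sed) or trained aerobically on a treadmill (Ex). Rats of the cardiac cachexia (CC) groups received a single injection of monocrotaline, a plant alkaloid that damages the lung vessels and leads to right heart failure with wasting, and likewise stayed sedentary (CC-Sed) or trained (CC-Ex). Each rat gave 1 library, so n = 6 for every group value below, and neither the labels nor the methods give an age. As a model, monocrotaline acts on the whole animal, and its effects on muscle that do not pass through the heart cannot be told apart from those of heart failure in these groups. Some monocrotaline rats died, and those without enlargement of the right ventricle were excluded, so the CC groups hold survivors with that sign.

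NRF2, the protein encoded by Nfe2l2, is a transcription factor that KEAP1 holds in the cytoplasm and delivers to a ubiquitin ligase for degradation. Oxidants and electrophiles modify KEAP1, NRF2 then escapes degradation, pairs with a small MAF protein in the nucleus and binds antioxidant response elements near genes for detoxification and glutathione synthesis. This control acts mostly on the protein, which RNA-seq does not measure. In muscle, superoxide from mitochondria and oxidases is turned into hydrogen peroxide by superoxide dismutases, and catalase and glutathione peroxidases remove the peroxide.

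The core letters of an antioxidant response element, TGACNNNGC (N is any base), were sought on both strands of the RefSeq promoter windows (build GRCr8, 250 bases before to 50 bases after the gene start), to show which of the genes carry them close to the start. All 9 measured genes had a window, and 3 held the motif: Nfe2l2, Gclm and Sod2. The same motif was in 12.1% of all 33469 windows. The sequences below run 5′ to 3′ on the gene's strand, with the matched letters in capitals. The match in Nfe2l2 began at base 39 of the transcribed part, and the last 30 bases of its window are shown. Those in Gclm and Sod2 lie on the opposite strand, with their first printed base 172 and 35 bases before the gene start, and the 250 bases before the start are shown. A match of letters is a description and not a binding site, and windows without one say nothing of elements farther away.
Nfe2l2, chr3:81028950-81028979, minus strand: actgctccgactagccatTGACGCCGCctc
Gclm, chr2:213031885-213032134, plus strand: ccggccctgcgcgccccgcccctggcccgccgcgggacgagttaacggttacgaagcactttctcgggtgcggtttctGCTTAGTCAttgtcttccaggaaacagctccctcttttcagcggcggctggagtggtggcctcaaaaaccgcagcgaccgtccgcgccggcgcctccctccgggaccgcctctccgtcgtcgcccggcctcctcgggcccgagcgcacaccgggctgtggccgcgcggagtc
Sod2, chr1:50050169-50050418, minus strand: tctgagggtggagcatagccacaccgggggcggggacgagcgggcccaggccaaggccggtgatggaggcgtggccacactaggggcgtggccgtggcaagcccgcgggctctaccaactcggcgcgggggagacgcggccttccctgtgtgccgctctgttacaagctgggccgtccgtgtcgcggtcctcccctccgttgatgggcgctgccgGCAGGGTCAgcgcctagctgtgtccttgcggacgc

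Expression is given as CPM, the counts of each library scaled to the same total after TMM normalization, and a change as Log2FC, the log2 fold change from edgeR's quasi-likelihood fit with its standard error (SE). A gene passed the test with an adjusted p (Benjamini-Hochberg over 10851 genes) under 0.05, and a differentially expressed gene (DEG) also had a Log2FC of at least 1 in size. Library totals ranged from 37816239 to 50350554 counts, and the 9 genes were covered by 232 (the lowest, in Nqo1) to 19388 counts (the highest, in Cat) in a rat. All 7 skeletal muscle markers sought (among them Acta1, Ckm and Ttn) were in the table, with summed levels of 108658 to 235572 CPM across the rats. The edgeR p-values set a group difference against the spread between these animals. In whole muscle, fewer cells of a type and less RNA per cell cannot be told apart.

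CC was accompanied by higher RNA levels of 7 of the 9 genes when sedentary and trained rats were pooled. The pooled CC effect, the mean of the CC-Sed vs. Sed and CC-Ex vs. Ex contrasts, passed the test in the higher direction for Nfe2l2, Keap1, Nqo1, Gclc, Gclm, Sod1 and Cat, and in the lower direction for none. Increases lay between 1.18-fold (Sod1) and 1.74-fold (Gclm), so none of the 9 genes was a DEG. Sod2 and Gpx1 did not pass. Among all genes, 17.2% passed in the higher direction and 27.8% in either direction, 2.88% were DEGs, and the median Log2FC was 0.61 over the 9 genes and 0.01 over all genes. Within sedentary rats 2 of the 9 genes passed, Gclc and Cat, where 6.46% of all genes passed in either direction (4.3% higher, 2.16% lower, 1.87% DEGs). Within trained rats none of the 9 passed, where 0.995% of all genes did (108 genes by edgeR, 0.875% higher, 0.12% lower, 0.525% DEGs). At an unadjusted p under 0.05, 7 of the 9 genes passed in sedentary rats (28.4% of all genes) and 4 in trained rats (22.6%), and 7 did in the pooled contrast (42.4%). In trained rats DESeq2 and limma-voom each called 2 of the 9 genes, Keap1 and Nqo1. Over the whole table of 10851 genes they called more than edgeR did, 685 by DESeq2 and 1043 by limma-voom.

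**Figure D1:**
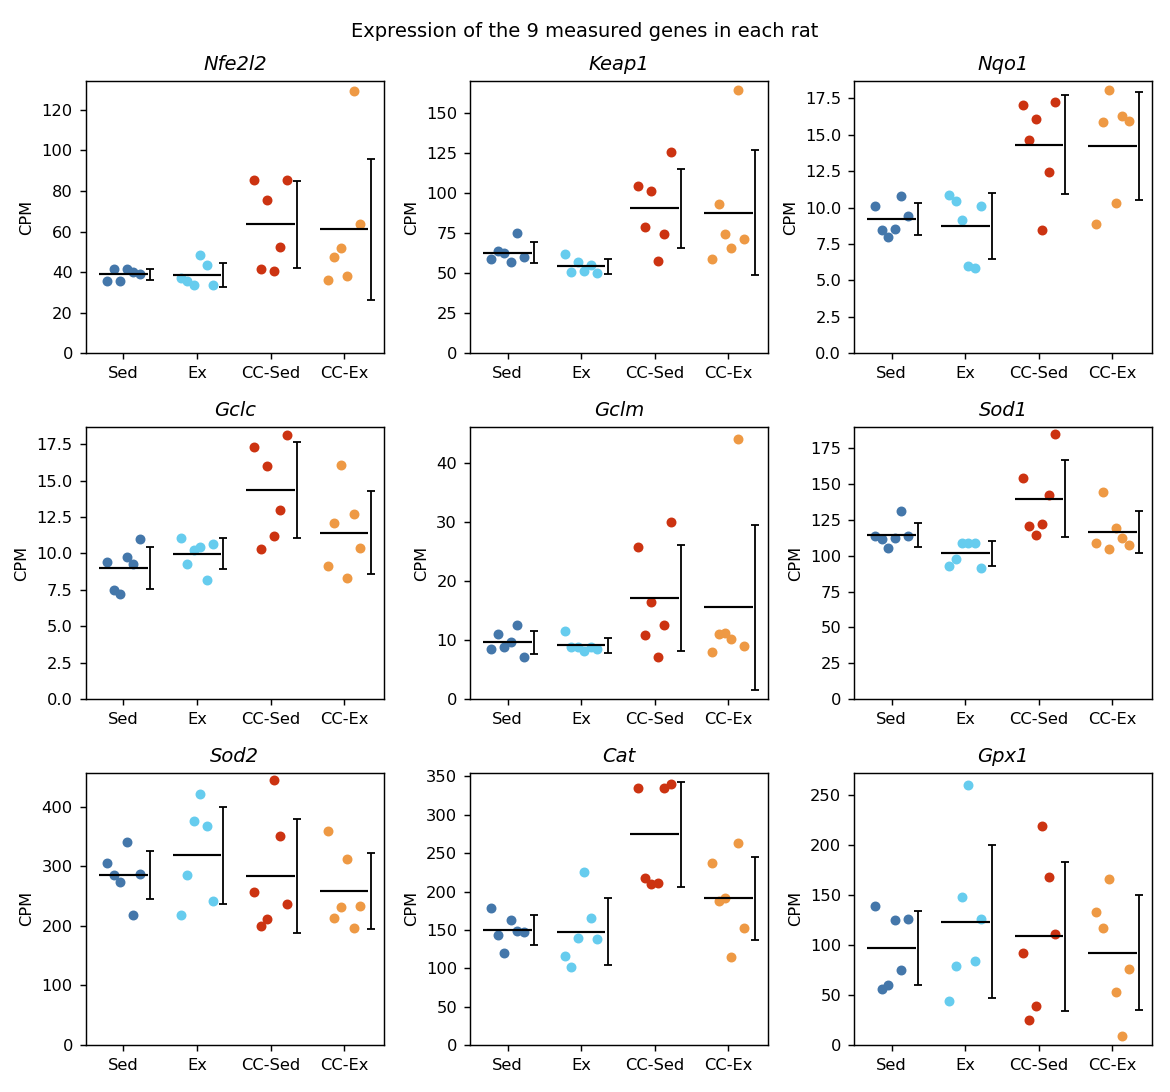
Expression of the 9 measured genes in CPM (y axis, from 0) for each of the 24 rats by group (x axis); each point is a rat, the horizontal bar is the group mean and the vertical bar 1 SD (n = 6). The CC-Sed points of Cat lie at 209.1 CPM and above, over all Sed points, while 1 CC-Ex rat stands apart in Nfe2l2, Keap1 and Gclm at 129.1, 164.4 and 44.002 CPM.

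Nfe2l2, the gene of NRF2 itself, ranged from 35.5 to 41.6 CPM in Sed rats, with a median of 39.5. In CC-Sed rats it ranged from 40.4 to 85.7 CPM around a median of 64.1. All 6 CC-Sed rats lay above the Sed median, but 2 of them fell inside the Sed range, so the groups overlapped. The Log2FC was 0.71 (SE 0.25) and missed the threshold (edgeR, adjusted p = 0.0796). Ex rats ranged from 33.6 to 48.4 CPM with a median of 36.4, and CC-Ex rats from 36.2 to 129.1 CPM with a median of 49.7. The Log2FC between them was 0.66 (SE 0.25, edgeR adjusted p = 0.137). Replicate 5 of CC-Ex, at 129.1 CPM, was far above the next CC-Ex rat at 63.6 CPM, and without it this Log2FC was 0.29. Pooled over training, Nfe2l2 rose by a Log2FC of 0.68 (SE 0.18, edgeR adjusted p = 0.00856), and by 0.48 without that rat (the lowest of the 24 fits that each left out 1 rat, all of which passed).

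Keap1, the inhibitor and degradation adaptor of NRF2, ranged from 56.9 to 74.9 CPM in Sed (median 61.4) and from 57.6 to 125.9 CPM in CC-Sed (median 90.2). It ranged from 50.3 to 62.1 CPM in Ex (median 53.3) and from 58.7 to 164.4 CPM in CC-Ex (median 72.8). In both comparisons the CC groups reached higher and overlapped their controls at the lower end. The Log2FC was 0.52 (SE 0.20, edgeR adjusted p = 0.0982) in sedentary and 0.69 (SE 0.20, edgeR adjusted p = 0.0756) in trained rats, and the latter was 0.40 without replicate 5 of CC-Ex. The pooled effect of 0.61 (SE 0.14) passed (edgeR adjusted p = 0.00502), and was 0.45 without that rat. The factor and its inhibitor moved by like amounts. The ratio of Nfe2l2 to Keap1 counts within a rat, which needs no library scaling, had medians of 0.627 and 0.701 in Sed and CC-Sed rats, and of 0.688 and 0.658 in Ex and CC-Ex rats. Its log2 differed by 0.04 between CC and saline rats (two-sided exact permutation p = 0.698, adjusted p = 0.873 over 15 ratio tests), which does not show that the ratio was equal.

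Among the NRF2 targets, Nqo1, a quinone reductase often used as a readout of the pathway, had 8.01 to 10.8 CPM in Sed (median 8.97) and 8.48 to 17.3 CPM in CC-Sed (median 15.4). Ex rats had 5.84 to 10.9 CPM (median 9.64) and CC-Ex rats 8.89 to 18.1 CPM (median 15.9). In each CC group most rats were above every control: the exceptions were replicate 4 of CC-Sed at 8.48 CPM and replicates 1 and 4 of CC-Ex at 8.89 and 10.3 CPM. The Log2FC was 0.64 (SE 0.20, edgeR adjusted p = 0.0519) in sedentary and 0.70 (SE 0.20, edgeR adjusted p = 0.0678) in trained rats. Pooled, Nqo1 rose by 0.67 (SE 0.14, edgeR adjusted p = 0.00228), and all 24 fits that left out 1 rat passed, with a lowest value of 0.62.

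Gclc encodes the catalytic subunit of glutamate-cysteine ligase, the enzyme of the limiting step of glutathione synthesis. Sed rats had 7.195 to 11.0 CPM (median 9.36) and CC-Sed rats 10.3 to 18.1 CPM (median 14.5), all 6 above the Sed median. Gclc rose in CC-Sed with a Log2FC of 0.67 (SE 0.16, edgeR adjusted p = 0.0201). This call was lost in 4 of 12 fits that left out 1 rat, without replicates 2 and 3 of Sed and replicates 1 and 6 of CC-Sed, where the adjusted p reached 0.0642 at most. Ex rats had 8.16 to 11.0 CPM (median 10.3) and CC-Ex rats 8.30 to 16.1 CPM (median 11.2). Their Log2FC of 0.20 (SE 0.16) did not pass (edgeR adjusted p = 0.443), and was 0.08 without replicate 3 of CC-Ex. The pooled effect was 0.43 (SE 0.11, edgeR adjusted p = 0.00918).

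Gclm encodes the modifier subunit of the same ligase. Its levels were 7.13 to 12.6 CPM in Sed (median 9.24) and 7.14 to 30.0 CPM in CC-Sed (median 14.5), with replicates 1 and 6 of CC-Sed at 25.8 and 30.0 CPM. Ex rats had 8.16 to 11.6 CPM (median 8.84). In CC-Ex, 5 rats had 7.94 to 11.1 CPM and replicate 5 had 44.002 CPM. The Log2FC was 0.83 (SE 0.37, edgeR adjusted p = 0.143) in sedentary and 0.77 (SE 0.37, edgeR adjusted p = 0.216) in trained rats, and the latter was 0.10 without replicate 5 of CC-Ex. The pooled effect of 0.80 (SE 0.26, edgeR adjusted p = 0.0261) was the largest of the 9 genes, but it rested on few rats: it was 0.45 without replicate 5 of CC-Ex, and the call was lost without that rat and without replicate 1 or 6 of CC-Sed. The ratio of Gclc to Gclm counts spanned 0.288 (that CC-Ex rat) to 1.57 among the CC rats and 0.675 to 1.54 among the saline rats. Its log2 difference between CC and saline rats was -0.17 (two-sided exact permutation p = 0.496, adjusted p = 0.847).

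**Figure D2:**
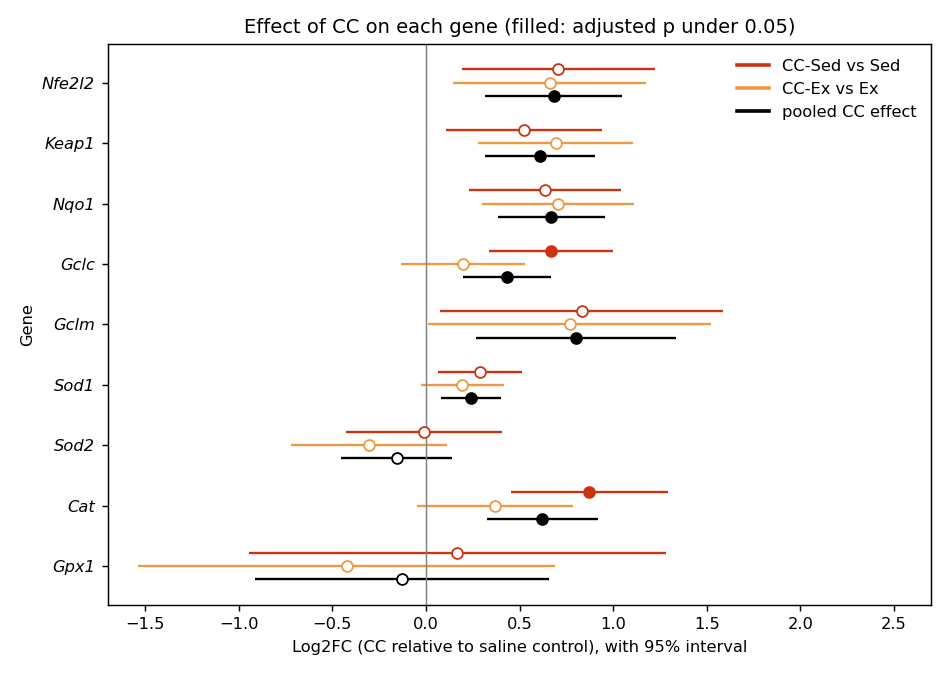
Log2FC of CC over saline (x axis, 0 is no change) for each of the 9 genes (y axis) in sedentary rats, in trained rats and pooled; lines are 95% intervals and filled circles passed the edgeR test. The pooled intervals of 7 genes lie above 0, from Sod1 at 0.24 to Gclm at 0.80, and those of Sod2 and Gpx1 span 0.

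Cat encodes catalase, the peroxisomal enzyme that splits hydrogen peroxide. It had 119.6 to 178.1 CPM in Sed (median 147.7) and 209.1 to 340.8 CPM in CC-Sed (median 275.8). It was the only one of the 9 genes whose CC-Sed and Sed rats did not overlap. Over all genes, 2.32% were higher without overlap. None of the 9 did so in trained rats, where 0.737% of all genes were higher without overlap. Cat rose 1.83-fold in CC-Sed (Log2FC 0.87, SE 0.20, edgeR adjusted p = 0.0171), a call lost without replicate 1 or 6 of CC-Sed, where the adjusted p was 0.0531 at most. Ex rats had 101.2 to 225.0 CPM (median 139.1) and CC-Ex rats 114.1 to 263.4 CPM (median 189.6), which overlapped (Log2FC 0.37, SE 0.20, edgeR adjusted p = 0.264; 0.25 without replicate 5 of CC-Ex). The pooled effect was 0.62 (SE 0.14, edgeR adjusted p = 0.00455).

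Superoxide dismutases showed unequal values. Sod1, the cytosolic copper-zinc form, had 105.6 to 130.9 CPM in Sed (median 112.9) and 114.4 to 185.3 CPM in CC-Sed (median 132.3). It had 91.6 to 109.2 CPM in Ex (median 103.5) and 104.9 to 144.8 CPM in CC-Ex (median 110.8). All 12 CC rats lay above the median of their control group, although both pairs of groups overlapped. The pooled Log2FC of 0.24 (SE 0.08, edgeR adjusted p = 0.0242) was the smallest of those that passed, and it was lost without replicate 1 or 6 of CC-Sed and, at 0.16, with upper-quartile scaling (edgeR adjusted p = 0.104). Neither the sedentary (0.29, SE 0.11, edgeR adjusted p = 0.0947) nor the trained contrast (0.20, SE 0.11, edgeR adjusted p = 0.275) passed. They were 0.17 without replicate 6 of CC-Sed and 0.12 without replicate 2 of CC-Ex.

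Sod2, the mitochondrial manganese form, had 217.5 to 341.0 CPM in Sed (median 285.8) and 199.3 to 444.1 CPM in CC-Sed (median 246.8). Ex rats had 217.7 to 420.6 CPM (median 326.9) and CC-Ex rats 196.3 to 359.3 CPM (median 232.2). The CC groups overlapped their controls, with 2 CC-Sed rats below and 2 above the Sed range and 2 CC-Ex rats below the Ex range. Its pooled Log2FC was -0.16 (SE 0.14, edgeR adjusted p = 0.414), with a 95% interval from -0.45 to 0.14, which leaves out an increase of the size seen in Nqo1. Within rats, the ratio of Sod2 to Sod1 counts had medians of 2.57 in Sed, 1.75 in CC-Sed, 3.13 in Ex and 2.18 in CC-Ex. Its log2 was lower by 0.41 in CC than in saline rats (two-sided exact permutation p = 0.0176), with adjusted p = 0.26 over the 15 ratio tests, so the difference did not pass. In the trained rats alone the same log2 ratio differed by -0.49 (two-sided exact permutation p = 0.0346, adjusted p = 0.26).

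Gpx1, the main cytosolic glutathione peroxidase, had the widest ratio of highest to lowest rat of the 9 genes in each group. It had 55.6 to 138.8 CPM in Sed (median 99.96) and 24.5 to 218.5 CPM in CC-Sed (median 101.6). Ex rats had 43.9 to 259.7 CPM (median 104.9) and CC-Ex rats 8.94 to 166.1 CPM (median 96.2). The group medians lay close together while the highest rat exceeded the lowest of its group 2.49-fold in Sed and 18.6-fold in CC-Ex. The pooled Log2FC was -0.13 (SE 0.38, edgeR adjusted p = 0.817), and its 95% interval from -0.91 to 0.66 covers a rise of the size seen in Keap1 as well as a fall of that size. The rats at the extremes of Gpx1 were also at the extremes of genes of slow muscle fibers, and the relation over all rats was not tested. The mean log2 CPM of Tnnc1, Tnni1, Tpm3 and Myl3 was lowest, at 1.05, in replicate 5 of CC-Ex, which also had the lowest Gpx1 level. It was highest, at 10.3 to 10.7, in replicates 4 and 5 of CC-Sed, replicate 4 of Ex and replicate 3 of CC-Ex, which were also the 4 rats with the most Gpx1. Between the extremes the order differed: replicate 4 of CC-Ex, at 1.71, had 52.8 CPM of Gpx1, and replicate 2 of CC-Sed, at 4.13, had 24.5 CPM. With this slow-fiber mean as a covariate, the Log2FC of Gpx1 in CC-Sed turned from 0.17 to -0.63, which did not pass.

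Slow-fiber and other marker levels are given here beside the 7 genes that rose. The summed level of 5 measured slow-fiber markers of 8 sought spanned 770 to 4025 CPM in Sed (median 2070) and 1170 to 11812 CPM in CC-Sed (median 6309). It spanned 1001 to 10707 CPM in Ex (median 3675) and 685 to 9060 CPM in CC-Ex (median 5410). None of the 5 passed in the pooled contrast. For CC-Sed vs. Sed alone, the authors listed Tnnc1, Tnni1, Tpm3 and Myl3 among their most upregulated genes. The 6 fast-fiber markers measured, none of which passed, had summed medians of 115337 CPM in Sed, 76969 in CC-Sed, 115920 in Ex and 120299 in CC-Ex, with rats between 54902 and 164930 CPM. With the slow-fiber covariate all 7 genes still passed in the pooled contrast. In CC-Sed vs. Sed 6 of the 9 genes passed with it, where 1375 of all 10851 genes did. Without it 2 of the 9 and 701 of all genes passed, so calls rose over the whole table. Beside the marker counts that follow, 17.2% of all genes rose and 10.6% fell in the pooled contrast, and lists this short give only rough shares. Of 5 fibroblast markers 3 fell in that contrast, with summed medians of 1574 CPM in Sed, 776 in CC-Sed, 2046 in Ex and 463 in CC-Ex. Of 4 endothelial markers 2 rose, with summed medians of 160.5, 212.0, 167.5 and 242.0 CPM in the same order. Of 3 erythroid markers in the table, all globins, 2 rose, with summed medians of 115.1, 118.6, 151.3 and 317.9 CPM and a highest value of 960 CPM in a CC-Ex rat, while the defining markers Alas2 and Slc4a1 had no row. None of 7 macrophage and leukocyte markers passed, with rats between 17.2 and 228 CPM, and of 2 adipocyte markers 1 fell, with rats between 61.3 and 179.5 CPM. The part of these cell types in the levels of the 9 genes was not tested. The slow-fiber covariate was measured in the same muscles after treatment, so it cannot be told apart from the treatment. Library numbers in the sample names were lower on the whole in CC than in saline rats, and with the library number as a covariate the pooled count remained at 7 of the 9 genes.

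Training by itself was accompanied by no change that passed in the 9 genes. In Ex vs. Sed the Log2FC ran from -0.21 in Keap1 (95% interval -0.62 to 0.20) to 0.35 in Gpx1 (95% interval -0.76 to 1.46), and no gene of the table passed by edgeR, DESeq2 or limma-voom (0% called; 118 genes or 1.09% at an unadjusted p under 0.05, none of them among the 9). In CC-Ex vs. CC-Sed again no gene of the table passed (0% called; 234 genes or 2.16% at an unadjusted p under 0.05, of which Cat and Sod1 are 2). All 9 estimates were below 0, from -0.52 in Cat to -0.01 in Nqo1, and these contrasts share the CC-Sed rats with the one against Sed. For Cat, all 6 CC-Ex rats lay below the CC-Sed median of 275.8 CPM. Its Log2FC of -0.52 (95% interval -0.94 to -0.11) did not pass (edgeR adjusted p = 1.00), and neither did that of Sod1, -0.27 (95% interval -0.49 to -0.04, edgeR adjusted p = 1.00). The near-zero value of Nqo1 changed sign with several settings, upper-quartile scaling and DESeq2 among them (each 0.01).

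The interaction, the CC effect in trained rats minus that in sedentary rats, passed for none of the 9 genes and for no gene of the table by edgeR (0% called; 154 genes or 1.42% at an unadjusted p under 0.05) or by DESeq2 or limma-voom. Gclc and Cat passed in sedentary and not in trained rats, and their CC effects are not shown to differ between the 2. Gclc had an interaction of -0.47 (95% interval -0.94 to -0.0012, edgeR adjusted p = 1.00), the 1 of the 9 genes under an unadjusted p of 0.05. Keap1 had the highest value, 0.17 (95% interval -0.42 to 0.75), which changed sign without replicate 5 of CC-Ex. Gpx1 had the lowest, -0.59, with a 95% interval from -2.16 to 0.98, and this value turned to 0.46 with the slow-fiber covariate.

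**Figure D3:**
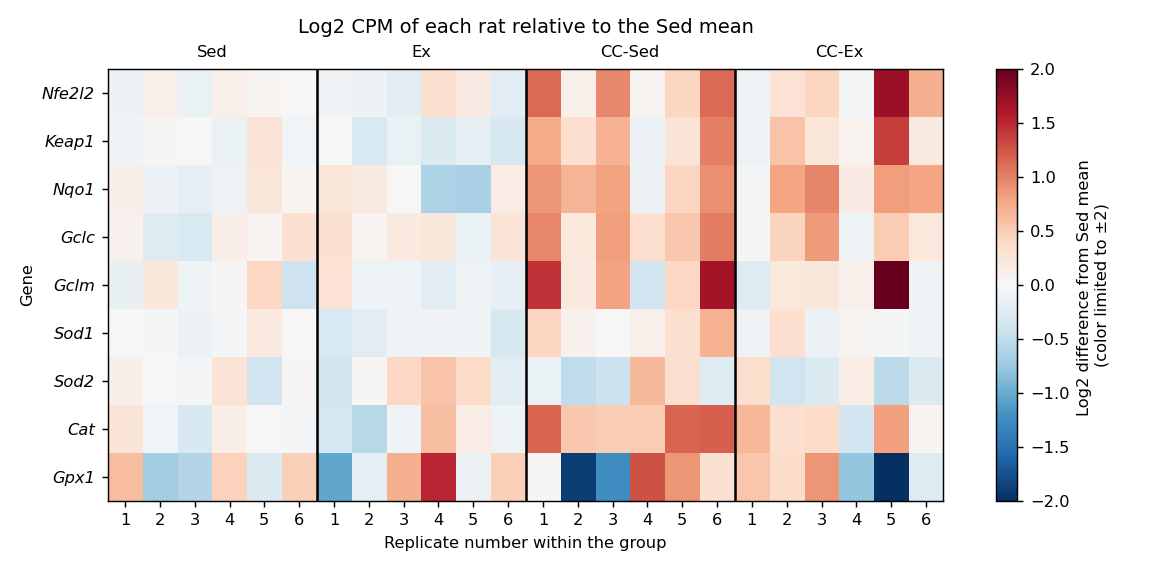
Log2 CPM of each gene (rows) in each rat (columns, by replicate number within the group) minus the mean of the Sed rats, with red for higher and blue for lower and the color limited to a difference of 2 either way. Replicates 1, 3 and 6 of CC-Sed and replicate 5 of CC-Ex are the reddest columns in Nfe2l2, Keap1 and Gclm, while replicate 4 of CC-Sed and replicates 1 and 4 of CC-Ex stay near the saline rats in these genes.

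The higher levels in CC were uneven across rats, as the map of rats by gene shows. The 4 highest of the 24 rats were the same 4 for Nfe2l2, Keap1 and Gclm: replicate 5 of CC-Ex and replicates 1, 3 and 6 of CC-Sed. Replicate 5 of CC-Ex was also the lowest of the 24 rats in Sod2 and Gpx1. Its total of 40563970 counts lay within the range of the other rats. Of the 6 highest rats, all 6 were CC rats for Nfe2l2, Keap1, Nqo1 and Gclc, 5 for Gclm, Sod1 and Cat, and 3 for Sod2 and Gpx1.

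Pairs of genes were compared across the 24 rats after the mean of each group was subtracted from the log2 CPM, so that differences between groups play no part. All values of a rat come from 1 library and share its composition and scaling. Of 36 pairs, Keap1 and Gclm were the most closely related, with Pearson's r = 0.94 (permutation p = 1e-05, the smallest that 100000 permutations within groups can give; adjusted p = 0.00036) and Spearman's rho = 0.86 (permutation p = 5e-05, adjusted p = 0.0018). This relation was seen in the 12 saline rats (r = 0.76) and in the 12 CC rats (r = 0.96), and without the 2 rats farthest from the median of Keap1 (r = 0.86). Nfe2l2 and Keap1 had r = 0.84 (permutation p = 0.00131, adjusted p = 0.00943) and rho = 0.66 (permutation p = 0.00815, adjusted p = 0.0442), and r = 0.70 without 2 rats. It was r = 0.91 in the CC rats and -0.03 in the saline rats, so the relation did not hold within the saline rats. Nfe2l2 and Gclm (r = 0.85, permutation p = 0.00071, adjusted p = 0.00639; rho = 0.71, permutation p = 0.00228, adjusted p = 0.0205; r = 0.69 without 2 rats) likewise had r = 0.91 in CC and 0.04 in saline rats.

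Nqo1 and Sod2 ran in opposite directions from rat to rat. They had r = -0.83 (permutation p = 5e-05, adjusted p = 0.0009) and rho = -0.77 (permutation p = 0.00016, adjusted p = 0.00276), with r = -0.75 in the saline rats, -0.88 in the CC rats and -0.74 without 2 rats. Nqo1 and Gclc ran together (r = 0.67, permutation p = 0.00067, adjusted p = 0.00639; rho = 0.71, permutation p = 0.00023, adjusted p = 0.00276; r = 0.45 in saline and 0.77 in CC rats, and 0.61 without 2 rats). Sod2 and Gpx1 also did (r = 0.64, permutation p = 0.00266, adjusted p = 0.0137; rho = 0.62, permutation p = 0.00426, adjusted p = 0.0307; r = 0.67 in saline and 0.64 in CC rats, and 0.57 without 2 rats). Keap1 and Sod2 were opposed (r = -0.63, permutation p = 0.00174, adjusted p = 0.0104; rho = -0.56, permutation p = 0.0109, adjusted p = 0.049; r = -0.50 in saline and -0.72 in CC rats, and -0.67 without 2 rats). For Keap1 and Nqo1, r = 0.58 passed (permutation p = 0.0076, adjusted p = 0.0342; r = 0.26 in saline and 0.71 in CC rats, and 0.64 without 2 rats), and rho = 0.49 did not (permutation p = 0.0242, adjusted p = 0.0726). By rho, Nqo1 and Gclm also passed (rho = 0.52, permutation p = 0.00859, adjusted p = 0.0442), where r = 0.52 did not (permutation p = 0.0198, adjusted p = 0.0738; r = 0.31 in saline and 0.62 in CC rats, and 0.34 without 2 rats).

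**Figure D4:**
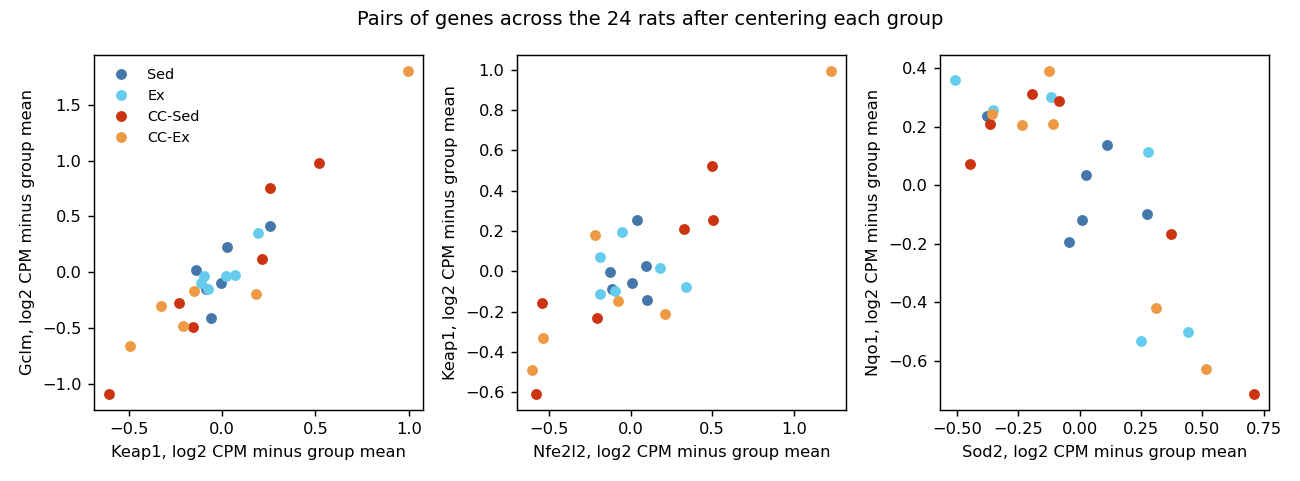
Log2 CPM minus the group mean for Gclm against Keap1 (left), Keap1 against Nfe2l2 (middle) and Nqo1 against Sod2 (right), with 1 point for each of the 24 rats, colored by group. Keap1 and Gclm rise together (r = 0.94), Nqo1 falls as Sod2 rises (r = -0.83), and in the middle panel the spread along the line comes from CC rats.

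On the same centered values, up to 3 genes of the table most like each of the 9 are named as a description over 24 rats, with no test. Nearest to Nfe2l2 were Map1lc3b2, Calcoco1 and Bnip3 (r = 0.94 each). The closest to Keap1 were Eif4g3 (r = 0.98), Naa25 and Nploc4 (0.97 each), and to Gclm Fyttd1 (0.98), Usp14 and Cast (0.97 each). Nqo1 was most like Gstm2, Abca5 (0.85 each) and Dctn2 (0.81), and Gclc most like Rps19 (0.90), Srrm1 and Slc2a1 (0.85 each). For Sod2 the nearest were Pdhb (0.95), Dlst and Cluh (0.94 each). Cat was near to Hsd17b4 (0.87) and Slc20a2 (0.85), and Gpx1 to Pcbp4, Esrrg and Ube2ql1 (0.94 each). Sod1 had looser neighbors, Vamp2 (0.76), Pkig and a gene without a symbol, ENSRNOG00000068283 (0.72 each). Reads of Map1lc3b2 and Rps19 may be shared with near-identical copies.

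The wider pathway was read from 7 lists of 75 genes in all, the 10 genes included, of which 69 were in the table. In the pooled contrast 23 of the 69 rose and 3 fell (17.2% and 10.6% of all genes), 9 of them DEGs (2.88% of all genes), with a median Log2FC of 0.13 against 0.01 over all genes. In CC-Sed vs. Sed, 7 rose and 1 fell (4.3% and 2.16% of all genes). In CC-Ex vs. Ex, 2 rose (0.875% of all genes). In the training contrasts and the interaction none of the 69 passed.

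**Figure D5:**
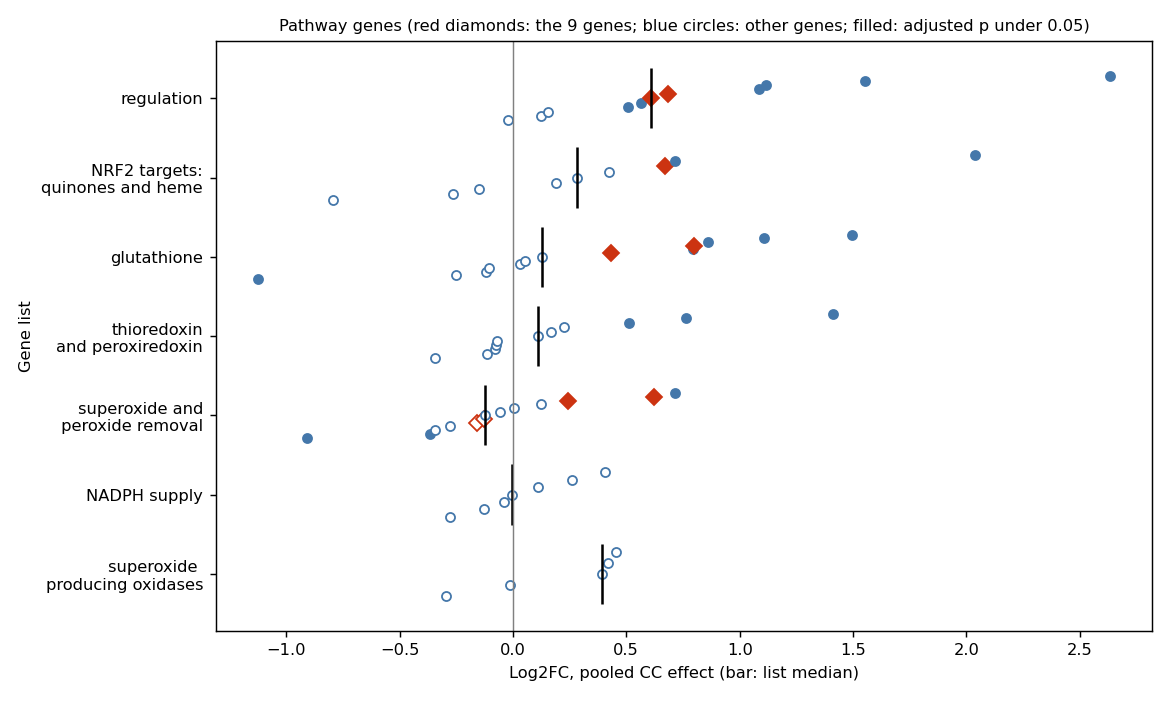
Pooled Log2FC of CC over saline (x axis) for the 69 measured genes of the 7 pathway lists (y axis); red diamonds are the 9 genes, blue circles the other genes, filled symbols passed the edgeR test and vertical bars are list medians. The regulation list has its median at 0.61 and its highest gene, Maff, at 2.63, while the lists of NADPH supply and of superoxide-producing oxidases have no filled symbol.

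Genes that regulate NRF2 held the largest share of increases, 8 of 11 (17.2% of all genes), with a median Log2FC of 0.61. Those that rose were Nfe2l2, Keap1, Bach1, Maff, Mafk, Mafg, Nfe2l1 and Sqstm1. Maff, a small MAF protein that pairs with NRF2 or with BACH1, had 1.84 to 5.27 CPM in Sed. In CC-Sed, Maff had 7.64 to 37.2 CPM, without overlap, where 2.32% of all genes were higher without overlap. It rose in CC-Sed (Log2FC 2.66, SE 0.57, edgeR adjusted p = 0.0137) and in CC-Ex, with rats from 1.70 to 54.7 CPM (Log2FC 2.60, SE 0.57, edgeR adjusted p = 0.0329; 1.63 without replicate 5 of CC-Ex). The CC-Sed call held in all 12 fits that left out 1 rat, and the CC-Ex call was lost in 8 of 12. Bach1, a repressor that competes with NRF2 at the same elements, had a pooled Log2FC of 1.55 (SE 0.33, edgeR adjusted p = 0.00281) and passed in CC-Sed (1.54, edgeR adjusted p = 0.0495), where leaving out any of 10 of the 12 rats ended the call. Mafk, likewise without overlap, passed in CC-Sed at 1.13 (edgeR adjusted p = 0.0479), with the same loss in 10 of 12 fits. The pooled value of Mafg (0.56) was 0.31 without replicate 5 of CC-Ex, and its call was lost in 7 of 24 fits. Sqstm1, the autophagy receptor p62 that binds KEAP1, rose by 1.12 (SE 0.25, edgeR adjusted p = 0.00407) in the pooled contrast. The ubiquitin ligase partners of KEAP1, Cul3 (0.15) and Rbx1 (-0.02), and the repressor Bach2 (0.12) did not pass.

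Of 9 NRF2 targets that handle quinones and heme, 3 rose and none fell in the pooled contrast (17.2% and 10.6% of all genes). Those that rose were Hmox1, Nqo1 and Ftl1. Hmox1, heme oxygenase, had 1.87 to 7.16 CPM in Sed and 7.98 to 53.98 CPM in CC-Sed, also without overlap (2.32% of all genes). It rose 4.93-fold in CC-Sed (Log2FC 2.30, SE 0.53, edgeR adjusted p = 0.0164). Among the 12 fits leaving out 1 rat, this call was lost only without replicate 6 of CC-Sed. In CC-Ex it had 3.61 to 28.6 CPM against 2.20 to 7.00 CPM in Ex (Log2FC 1.78, SE 0.52, edgeR adjusted p = 0.0786). Summed globin medians were 115.1 CPM in Sed and 118.6 in CC-Sed, and 151.3 in Ex and 317.9 in CC-Ex. Their relation to Hmox1 was not tested. The pooled Log2FC of Ftl1, the ferritin light chain, was 0.71, and its reads may be shared with near-identical copies.

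In the glutathione list 6 of 13 measured genes rose and 1 fell (17.2% and 10.6% of all genes), with a median of 0.13. Beside Gclc and Gclm, the pooled contrast passed for Chac1 (1.50), which degrades glutathione, for glutathione reductase Gsr (0.86), and for the glutathione S-transferases Gstm2 (1.11) and Gstm1 (0.79), paralogs whose reads can be hard to part. Gsr was 0.47 without replicate 5 of CC-Ex, and its call was lost in 11 of 24 fits that left out 1 rat, under limma-voom (adjusted p = 0.0722) and under upper-quartile scaling (edgeR adjusted p = 0.0524). The call of Gstm1 was lost in 2 of 24 such fits and with the library number as a covariate (edgeR adjusted p = 0.0531). Gstm2 also passed in CC-Ex vs. Ex (1.33, SE 0.32, edgeR adjusted p = 0.0434), a call lost in 10 of 12 fits that left out 1 rat. Glrx, the cytosolic glutaredoxin, was the gene that fell, with 5.66 to 13.0 CPM in Sed and 1.87 to 5.71 CPM in CC-Sed (Log2FC -1.45, SE 0.37, edgeR adjusted p = 0.0254, lost in 5 of 12 fits that left out 1 rat). Pooled, its Log2FC was -1.12 (SE 0.26, edgeR adjusted p = 0.0044). Gss, the second enzyme of glutathione synthesis, did not pass (-0.12).

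Of 11 measured thioredoxin and peroxiredoxin genes, 3 rose and none fell in the pooled contrast (17.2% and 10.6% of all genes). Those that rose were Srxn1 (1.41), which repairs peroxiredoxins, Txnip (0.76), which inhibits thioredoxin, and the thioredoxin reductase Txnrd1 (0.51). Srxn1 was low, with medians of 0.71 CPM in Sed and 2.17 in CC-Sed. In trained rats its median was 0.67 CPM in Ex and 0.64 in CC-Ex, where the highest rat had 8.84. Without replicate 5 of CC-Ex the value of Txnrd1 was 0.25, and its call was lost in 11 of 24 fits that left out 1 rat and with upper-quartile scaling (edgeR adjusted p = 0.0568). Txnip had 441 to 788 CPM in Sed and 687 to 1533 CPM in CC-Sed (Log2FC 0.82, SE 0.24, edgeR adjusted p = 0.0454), a call lost in 10 of 12 fits that left out 1 rat. The pooled value of Srxn1 was 0.53 without replicate 5 of CC-Ex (edgeR adjusted p = 0.23), and its call was lost in 11 of 24 fits that left out 1 rat and with limma-voom (adjusted p = 0.0996). Measured peroxiredoxins lay between -0.34 (Prdx4) and 0.17 (Prdx1), and none passed.

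Among 13 genes that remove superoxide and peroxide, 3 rose (Cat, Gpx3 and Sod1) and 2 fell (Gpx7 and Selenow), with a median of -0.12. These counts lie near the pooled shares over all genes, 17.2% higher and 10.6% lower. Gpx3, the secreted glutathione peroxidase, had a pooled Log2FC of 0.71 (SE 0.20, edgeR adjusted p = 0.0127), and Gpx7, a peroxidase of the endoplasmic reticulum, one of -0.91 (SE 0.26, edgeR adjusted p = 0.0154). Selenow, a small selenoprotein abundant in muscle, had -0.36 (edgeR adjusted p = 0.0413), a call lost in 16 of 24 fits that left out 1 rat. With the library number as a covariate neither Gpx7 (edgeR adjusted p = 0.0739) nor Selenow (edgeR adjusted p = 0.0756) passed. None of 7 genes of NADPH supply passed (-0.28 to 0.40), and none of 5 genes of superoxide-producing oxidases did (-0.29 to 0.46). Of the wider genes with a promoter window, 15 of 59 held the motif TGACNNNGC, 4 of the 19 that rose in the pooled contrast and 11 of the 37 that did not pass. These are counts of genes, some with several windows, and cannot be set against the 12.1% of windows.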

How the data were processed

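RNA was prepared from medial gastrocnemius of 24 rats, 6 per group, with a stranded poly-A kit. The authors trimmed reads with Trim Galore, quantified them with Salmon on the Ensembl mRatBN7.2 transcriptome and used tximport to reach gene level. Estimated counts of 10851 genes were deposited, unscaled and already whole numbers, none of them below 10, so no rounding was needed. Groups and replicate numbers came from the sample titles.

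Counts were analyzed in R 4.3.3 with edgeR 4.0.16 (filtering by expression, which removed 0 genes, TMM, quasi-likelihood F test, all 24 rats in 1 model of 4 group means, Benjamini-Hochberg over all genes). The SE was the size of the Log2FC divided by the square root of F. Log2 CPM used a prior count of 2. Within-rat ratios were compared by two-sided exact permutation tests (924 arrangements for 6 against 6 rats, smallest p 0.00216), and pairs of genes by 100000 permutations within groups (Python 3.11.15, numpy 2.4.6). Alternatives were upper-quartile scaling, DESeq2 1.42.0, limma-voom with quality weights (limma 3.58.1), no filter, at least 50 counts in every rat, only the groups compared, a slow-fiber mean or the library number as a covariate, a block for the replicate number, the DEG criterion, and leaving out each rat. The scripts were tested on simulated data. The genes and lists were chosen with earlier results of these data known. Genes named were the 9 measured genes in every contrast, the up to 8 wider pathway genes with the largest passing Log2FC per contrast, those that make up a list's count, and the 3 genes most like each of the 9, of which 1 is not reported here. Wider genes named with values that did not pass were chosen after their values were seen. Promoter sequences came from RefSeq (GRCr8). That build differs from the one used for counting, so no other coordinates are given. Protein sequences were not used here.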

Additional observations from a re-analysis of the deposited data

Results flagged for a closer look

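In 6 of 36 tests of a gene in a group of 6 rats, the highest rat lay farther from the others than the 95% critical value of Dixon's gap test. Chance gives about 1 in 20 for independent, normally distributed values. These 36 tests used unlogged CPM of genes in the same 24 rats, so that rate is no exact measure here. Replicate 5 of CC-Ex accounts for 3 of the 6: Nfe2l2 at 129.1 CPM (next rat 63.6), Keap1 at 164.4 CPM (next 93.6) and Gclm at 44.002 CPM (next 11.1). The other 3 were Gclm in replicate 1 of Ex at 11.6 CPM (next 8.90), Sod1 in replicate 5 of Sed at 130.9 CPM (next 113.8) and Sod1 in replicate 2 of CC-Ex at 144.8 CPM (next 119.3).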

How the results depend on the processing

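In CC-Sed vs. Sed, where 701 genes, 2 of the 9 genes and 8 of the 69 pathway genes passed, DESeq2 called 1331 genes, limma-voom 2474 (6 of the 9, 20 pathway genes) and the slow-fiber covariate 1375 (6 and 17). Fitting only the groups compared gave 4 of the 9, and the DEG criterion 203 genes, 0 of the 9 and 5 pathway genes. In CC-Ex vs. Ex, from 108 genes, 0 of the 9 and 2 pathway genes, upper-quartile scaling left 23 genes and 0 pathway genes, DESeq2 called 685 (2 of the 9, 11 pathway genes), limma-voom 1043 (2 and 7), only the groups compared 1 (0 pathway genes), the library number 42 (1 pathway gene) and the DEG criterion 57. Pooled, 3017 genes, 7 of the 9 and 26 pathway genes became 313, 0 and 9 with the DEG criterion. Upper-quartile scaling moved the share of calls in the higher direction from 61.8% to 45.2% pooled and from 66.6% to 52% in CC-Sed, and DESeq2 from 88% to 77.8% in CC-Ex. Rats with the same replicate number had a mean r of -0.23 to 0.095 over pairs of groups, so no pairing was seen. For Sed with CC-Sed, r ranged from -0.50 to 0.36 over 6 pairs. So few pairs cannot exclude that the numbers pair rats. With the replicate block 553 genes passed in CC-Sed, 1 in CC-Ex (0 pathway genes) and 2772 pooled (6 of the 9, Gclm being lost at 0.70), and the pooled calls of Gsr and Txnrd1, those of Maff and Gstm2 in CC-Ex and that of Txnip in CC-Sed were lost too.

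Leaving out 1 rat at a time gave 173 to 1726 genes, 0 to 5 of the 9 and 1 to 15 pathway genes in CC-Sed. It gave 2 to 847 genes, 0 to 2 of the 9 and 0 to 11 pathway genes in CC-Ex, and 2207 to 3832 genes, 5 to 7 of the 9 and 18 to 30 pathway genes pooled. In CC-Sed none of the 9 passed without replicate 1 or 6 of CC-Sed and 1 without replicate 2 or 3 of Sed, and 5 passed without replicate 4 of CC-Sed. In CC-Ex, Keap1 and Nqo1 passed without replicate 1 or 4 of CC-Ex. The wider pathway genes named kept their call in 203 of 222 comparisons with other settings and in 440 of 552 with 1 rat left out.

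Directions that turned belong to values that did not pass. Nqo1 in CC-Ex vs. CC-Sed turned to 0.0074 (upper quartile), 0.0098 (DESeq2), 0.00029 (only the groups compared) and 0.0079 (replicate block). Gpx1 turned to -0.14 (limma-voom) and -0.63 (slow-fiber covariate) in CC-Sed, 0.091 (limma-voom) in CC-Ex, 0.10 (library number) pooled, -0.20 (slow-fiber covariate) in Ex vs. Sed, and 0.23 (limma-voom) and 0.46 (slow-fiber covariate) in the interaction. The interaction of Keap1 turned to -0.0071 (limma-voom) and -0.052 (slow-fiber covariate), and Sod2 in CC-Sed to 0.013 (library number). With 1 rat left out, Sod2 in CC-Sed ranged from -0.18 to 0.074. Gpx1 ranged from -0.16 to 0.38 in CC-Sed, -0.29 to 0.053 pooled and -0.0098 to 0.53 in Ex vs. Sed. Nqo1 in CC-Ex vs. CC-Sed ranged from -0.12 to 0.095 and the interaction of Keap1 from -0.089 to 0.29. The log2 ratio of Gclc to Gclm ranged from -0.19 to 0.11 in CC-Sed, -0.44 to 0.025 in CC-Ex and -0.19 to 0.27 in CC-Ex vs. CC-Sed, and that of Nfe2l2 to Keap1 from -0.16 to 0.0055, -0.0034 to 0.080 and -0.13 to 0.035 in CC-Ex, pooled and in CC-Ex vs. CC-Sed. That of Sod2 to Sod1 ranged from -0.50 to -0.35 pooled, and passed without replicate 4 of CC-Sed (two-sided exact permutation test, adjusted p = 0.0318). The cause of these changes was not tested.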
